A study of Mus musculus with 3 samples.

Results

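Intergenic HBO1 peaks at a middle distance from gene starts were examined in Oct1 deficient mouse embryonic stem cells (ESCs). A peak belonged here when its summit lay on chromosomes 1 to 19, outside every gene body of the GENCODE vM21 annotation, and its nearest edge was over 10 kb and at most 50 kb from the nearest transcription start site (TSS) of any transcript. Summits on chromosome 3 from 100 to 141 Mb were left out. In all, 1616 peaks met this rule, out of 12637 on the same chromosomes and 13823 in the deposited list. The rule used position alone and no measured level.

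There were 2 ChIP samples for HBO1 and 1 sample of input, chromatin that went through no immunoprecipitation. All came from ESCs deficient for Oct1, a paralog of Oct4, grown with the GSK3 inhibitor CHIR99021 at 3 µM, a MEK inhibitor at 1 µM and ascorbic acid, and fixed with 1% formaldehyde for 10 min. The methods of the study also give LIF and growth on feeder fibroblasts, which were depleted the passage before experiments. The labels name the antibody of the second ChIP sample HBO2 while its title names HBO1, and it was treated as HBO1. One title in the study names WT ESCs for these peaks, whereas the labels and methods give Oct1 deficient cells, and the labels were followed. One peak list was deposited and was taken as that of both ChIP samples, so no value below has a spread between replicates and no test between conditions was possible. The input file listed 31973678 aligned read ends, and no ChIP reads were analysed here.

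HBO1, encoded by Kat7, is a histone acetyltransferase of the MYST family. It works in complexes with a scaffold of the JADE or BRPF type, which influences the histone residues that are acetylated. Intergenic sequence away from promoters can hold enhancers, where transcription factors such as Oct4, Sox2, Klf5 and Esrrb bind in ESCs, but it also holds many of the interspersed repeats of the mouse genome.

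Both kinds of sequence were found under these peaks, but of the windows printed below only that of Sox2 lies in an enhancer listed by RefSeq. The sequences below are the 200 bp around the summit in mm10, forward strand, with each CG dinucleotide in capitals, because CG content set the peaks apart from their surroundings. The first 6 are the strongest peak beside each of 5 pluripotency genes and, last, the peak with the highest fold enrichment of all 1616. The other two stand for the largest groups of peaks on repeated sequence.
Zfp42 (chr8:43289641-43289840): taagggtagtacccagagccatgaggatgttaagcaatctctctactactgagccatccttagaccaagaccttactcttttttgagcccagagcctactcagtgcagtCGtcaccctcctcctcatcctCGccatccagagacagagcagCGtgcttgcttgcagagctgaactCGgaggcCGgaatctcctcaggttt
Esrrb (chr12:86525398-86525597): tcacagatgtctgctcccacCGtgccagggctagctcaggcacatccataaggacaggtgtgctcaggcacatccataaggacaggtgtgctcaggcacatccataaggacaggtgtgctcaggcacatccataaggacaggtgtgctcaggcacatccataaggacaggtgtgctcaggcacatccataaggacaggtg
Sox2 (chr3:34757837-34758036): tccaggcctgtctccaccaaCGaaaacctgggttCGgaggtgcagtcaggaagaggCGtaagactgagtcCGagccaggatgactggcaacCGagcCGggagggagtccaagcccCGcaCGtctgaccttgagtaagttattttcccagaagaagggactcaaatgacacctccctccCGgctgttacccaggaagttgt
Klf5 (chr14:99315186-99315385): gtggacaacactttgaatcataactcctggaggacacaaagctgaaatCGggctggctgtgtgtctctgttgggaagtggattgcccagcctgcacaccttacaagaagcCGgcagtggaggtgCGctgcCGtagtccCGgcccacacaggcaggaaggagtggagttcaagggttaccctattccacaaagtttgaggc
Prdm14 (chr1:13105140-13105339): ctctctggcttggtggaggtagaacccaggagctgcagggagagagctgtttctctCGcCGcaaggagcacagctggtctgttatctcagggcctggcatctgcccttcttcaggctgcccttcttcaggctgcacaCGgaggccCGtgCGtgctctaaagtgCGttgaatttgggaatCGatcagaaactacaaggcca
Lgi1 (chr19:38325507-38325706): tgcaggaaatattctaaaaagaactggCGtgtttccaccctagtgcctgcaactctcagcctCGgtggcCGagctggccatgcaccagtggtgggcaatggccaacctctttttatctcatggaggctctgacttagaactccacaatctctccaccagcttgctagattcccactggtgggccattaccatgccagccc
First repeat family (chr12:99148338-99148537): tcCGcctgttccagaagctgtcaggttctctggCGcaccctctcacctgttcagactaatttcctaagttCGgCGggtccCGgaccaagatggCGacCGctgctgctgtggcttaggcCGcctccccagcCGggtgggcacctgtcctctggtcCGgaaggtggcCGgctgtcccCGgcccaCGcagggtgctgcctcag
Second repeat family (chr12:3336699-3336898): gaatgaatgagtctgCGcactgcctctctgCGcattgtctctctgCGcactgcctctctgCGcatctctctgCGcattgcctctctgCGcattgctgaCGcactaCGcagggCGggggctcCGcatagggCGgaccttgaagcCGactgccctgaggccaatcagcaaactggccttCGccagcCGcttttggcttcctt

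The Esrrb window is a tandem array. The 32 bases at its summit occurred 11 times in the genome, all within 1 kb of that summit, with a spacing of 28 bp. By contrast, the summit 32-mer of the printed window occurred 5721 times in the genome for the first repeat family, whose peaks had a median of 2308.5 copies and a range of 12 to 5721. For the second family the printed window had 729 copies and its peaks a median of 407. The Zfp42, Sox2, Klf5, Prdm14 and Lgi1 windows each had a summit 32-mer with 1 genome copy.

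Enrichment at these peaks was moderate. Fold enrichment, the authors' ratio of ChIP over the local background at the summit, had a median of 4.61, quartiles of 3.29 and 5.66, and a range from 1.19 to 15.4. For the −log10 q the median was 6.45 and the range 2.31 to 153. A value of 10 was reached by 313 peaks, or 19.4% (exact binomial 95% interval 17.5 to 21.4%). Over all 12637 peaks on the same chromosomes the share was 24.5% and the median fold enrichment 3.71. Among the 1616 the share was 8.67% for peaks at unique sequence and 28.6% for those at sequence in over 10 copies, as defined below. It was 10.9% for peaks with at most 10 input read ends. Intervals here cover counting error only. Peak width had a median of 341.5 bp.

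The depth behind nearly all values could be recovered. For all 1616 peaks whole-number pile-ups scaled by 0.676 gave the deposited −log10 p back within 0.0005. Fold enrichment and −log10 p together left a single pile-up and background at the summit for 1611 of them, and for the rest the closest solution was taken. The pile-up had a median of 31 reads, with quartiles of 23 and 56. The background is in units of the pile-up times 0.676, while pile-ups are given unscaled. It had a median of 3.26, and at 329 peaks (20.4%) it stood at its floor of 1.74, which is 2.57 in pile-up reads. The lowest pile-up was 15 and the highest 1106, so single peaks differ widely in the reads behind them. Whether 1 unit is a read end or a read pair is not stated in the sources used here.

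The peaks divided into those on unique and those on repeated sequence. The 32-mer at the summit occurred once in the genome for 738 peaks (45.7%), 2 to 10 times for 143 (8.85%) and over 10 times for 735 (45.5%). The reference marked the summit base as repeat for 54.7% of the peaks (52.2 to 57.2%) and the centre base of 38.9% of all 200-bp windows in the same intergenic space. The share was 16.4% (13.8 to 19.3%) for single-copy peaks and 94.0% for peaks in over 10 copies. Single-copy peaks had a median fold enrichment of 5.05, a pile-up of 25 and a background of 2.23. For peaks in over 10 copies these medians were 3.66, 53 and 9. As a class, peaks in over 10 copies thus had more ChIP reads and a lower ratio. For peaks in 2 to 10 copies the medians were 4.93, 35 and 3.32.

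**Figure D1:**
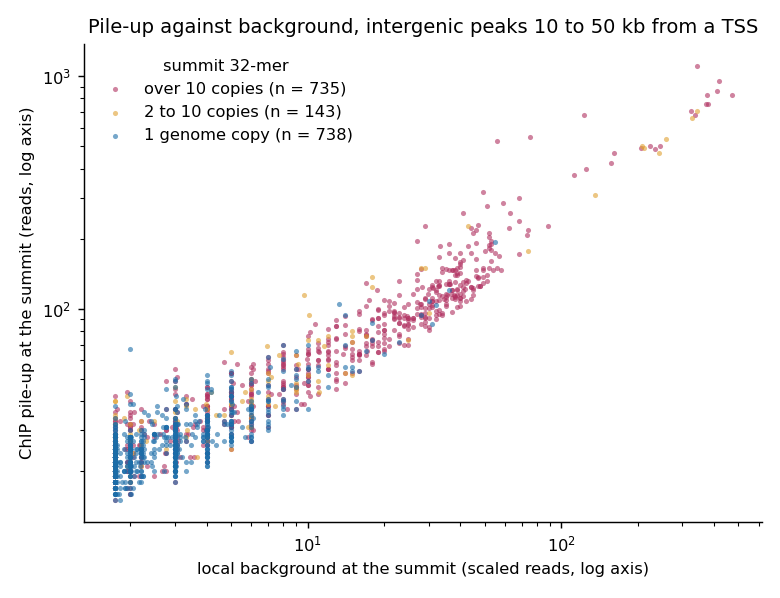
ChIP pile-up at the summit (y, unscaled reads) against the local background (x, in units of the pile-up times 0.676), both on log axes. Each of the 1616 peaks is 1 point, coloured by the number of genome copies of the summit 32-mer. The 738 single-copy peaks gather at low background, and peaks in over 10 copies make up most of those at high pile-up and high background.

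Input moved with copy number. Counted over 1 kb centred on the summit, the median was 10 read ends for all 1616 peaks, 6 for single-copy peaks and 22 for peaks in over 10 copies. Of these read ends 99.1% at single-copy peaks had a mapping quality of at least 20, against 17.5% at peaks in over 10 copies. Read placement is therefore uncertain for the latter, and its part in their fold enrichment was not tested. Fold enrichment had a median of 5.40 for the 875 peaks with at most 10 input read ends, 4.09 for 378 peaks with 11 to 30, 2.60 for 218 with 31 to 100 and 2.11 for 145 above that. In the last class 97.9% of the summits were in over 1 copy. Input enters the background of the fold enrichment and every peak passed the same q limit, so the fall over these classes is a description.

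A few sequence families made up much of the repeated part. Grouping the 735 peaks in over 10 copies by shared 16-mers (at least 30% of the 200 bp) gave 8 families with 421 peaks, 26.1% of the 1616. The first held 122 peaks on 18 chromosomes, with a median fold enrichment of 2.31, a pile-up of 117, an input of 103.5 read ends and 65.5% GC. The second held 87 peaks on 19 chromosomes, with 3.13, 74, 32 and 58.5%. The next family, of 56 peaks, had less input than either, a median of 9 read ends, and a fold enrichment of 4.81. Median fold enrichment of the remaining families ran from 2.24 to 6.04. Family members share their sequence and are not independent sites. Sequence like the leader of the first family was found at 7.67% of the peaks here, 4.36% of intergenic peaks at 1 to 10 kb, 4.73% of intronic peaks over 1 kb from a TSS and 16.6% of intergenic peaks over 50 kb from a TSS. The families were not matched to named repeats here.

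The peaks were rich in G and C. GC content of the 200 bp around the summit had a median of 56%, with quartiles of 54 and 59%, and 45 peaks were under 50%. Windows of 200 bp tiled over the same space had a median of 41%, and 13.2% of them reached 50%. Other peak classes were GC-rich too, with medians of 56% in introns, 56% at 1 to 10 kb and 57% over 50 kb. The median was 70% within 1 kb of a TSS and 58.5% over all peaks on the same chromosomes. The number of CG dinucleotides had a median of 6 at the peaks here, 9 over all peaks on the same chromosomes and 1 in the windows. The gap to the windows was narrower within a class of base composition. Among windows of 55 to 60% GC the mean number was 3.45, against 4.06 at single-copy peaks and 7.44 at multi-copy peaks of the same class.

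**Figure D2:**
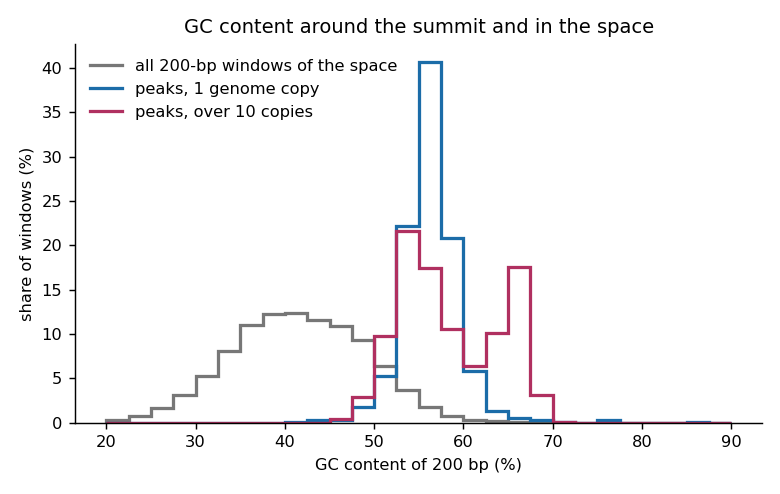
Share of windows (y, %) by GC content of 200 bp (x, %) for all windows of the intergenic space 10 to 50 kb from a TSS, for single-copy peaks and for peaks in over 10 copies. Single-copy peaks form 1 narrow peak around 56%, and peaks in over 10 copies have a second one above 60%.

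Input also followed base composition. In 1-kb windows of the space the median was 2 read ends at 40 to 45% GC, 14 at 50 to 55% and 44 at 55 to 60%. Single-copy peaks had 4, 7 and 16.5 in these classes, and multi-copy peaks had 6, 19 and 86. Peaks were called against this same input and the windows include repeated sequence, so these values are a description.

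Density was lower at greater distance from the TSS. Per Mb of eligible sequence there were 1.90 single-copy peaks at 10 to 20 kb (exact Poisson 95% interval 1.72 to 2.10), 1.34 at 20 to 30 kb, 1.02 at 30 to 40 kb and 0.885 at 40 to 50 kb (0.682 to 1.13). The intervals of the first and last bins did not overlap. Peaks in over 10 copies had 1.53 (1.37 to 1.71) in the first bin and 1.18 (0.939 to 1.45) in the last, with intervals that overlapped slightly, and whether their trend differed from that of single-copy peaks was not tested. Across neighbouring classes there were 2.25 single-copy peaks per Mb at 1 to 10 kb, 1.44 (1.34 to 1.55) at 10 to 50 kb and 0.491 over 50 kb, against 1.23, 1.44 and 1.18 peaks in over 10 copies. Across the 4 bins, the median fold enrichment of single-copy peaks lay between 4.89 and 5.13. The eligible sequence includes repeats, and neither repeats nor GC content were matched between distances. By GC content of 1 kb, density ran from 0.522 peaks per Mb at 40 to 45% to 42.1 at 55 to 60%. The part of either in the fall with distance was not tested.

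**Figure D3:**
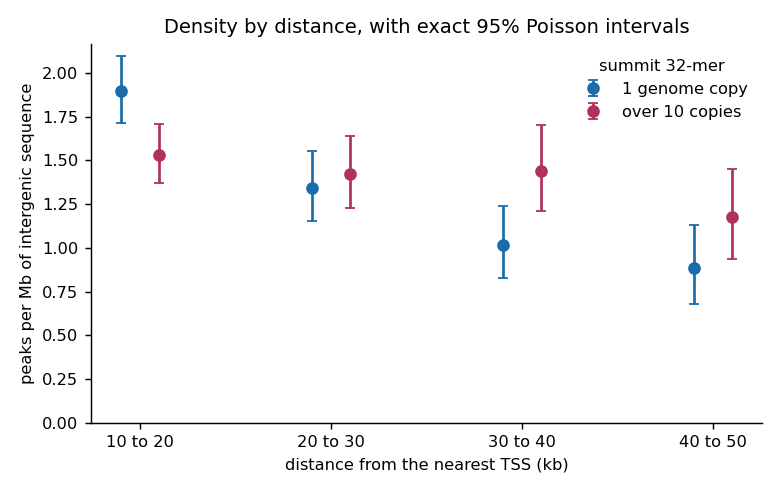
HBO1 peaks per Mb of intergenic sequence (y) in 4 bins of distance from the nearest TSS (x, kb), for single-copy peaks and peaks in over 10 copies, with exact 95% Poisson intervals. Single-copy peaks fall from 1.90 to 0.885 per Mb.

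Other classes of peaks were set beside these, without a test. Single-copy peaks had a median fold enrichment of 5.05 here, 4.86 at 1 to 10 kb, 5.06 over 50 kb and 4.92 in introns. Their median pile-up was 25, 28, 24 and 27 in that order. The share of multi-copy summits was 54.3% here, 43.0% at 1 to 10 kb, 72.0% over 50 kb and 29.9% in introns. At promoters, within 1 kb of a TSS, the median fold enrichment was 2.68 at a median input of 80 read ends. Where the input was at most 10 read ends, the median fold enrichment was 5.40 here, 5.44 at 1 to 10 kb, 5.30 over 50 kb, 5.30 in introns and 5.34 within 1 kb of a TSS. Input enters the background of this ratio and every peak passed the same q limit, so like values at like input are a description.

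The type of the nearest TSS varied. It was of a protein-coding transcript for 461 peaks (28.5%), against 20.3% of 1-kb windows of the space. By the type of the gene, whatever its transcript, it belonged to a protein-coding gene for 614 peaks (38.0%), a processed pseudogene for 349 and a lincRNA for 272. The nearest protein-coding TSS lay a median of 44598.5 bp away, and 58.4% of the peaks were upstream of it (55.9 to 60.8%), close to the 59.7% of the windows. The nearest coding gene also had an HBO1 peak within 1 kb of its TSS for 28.3% of the peaks (26.2 to 30.6%) and 20.4% of the windows. This share was 31.8% for single-copy peaks and 42.2% (29.9 to 55.2%) for the 64 of them with a −log10 q of at least 10. It was 32.6% for intergenic peaks at 1 to 10 kb and 22.3% for those over 50 kb away. The sets also differed in nearness to coding genes. A coding TSS lay within 50 kb for 39.2% of windows, 53.7% of the peaks, 63.1% of single-copy peaks and 73.4% of the 64. The part of this in the share was not tested.

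Genes of the pluripotency network were among the neighbours. Of 31 core and naive pluripotency genes, 10 (32.3%) were the nearest coding gene of at least 1 peak, against 5.86% of all 20733 coding genes. The nearest coding gene can lie far beyond 50 kb, since the rule took the TSS of any transcript: 384571 bp for Nr5a2, 482138 bp for Dppa4 and 605662 bp for Id2. Gene size and the room around a gene also set such shares, and their part was not tested. The count was 0 of 11 for primed and formative pluripotency genes and 0 of 16 for fibroblast genes, lists too short to differ visibly from the 5.86% of all genes.

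Zfp42, which encodes the naive pluripotency marker Rex1, had the highest value of these lists. Its peak, chr8:43289529-43290023, lay 16913 bp downstream, with a fold enrichment of 9.74 at a pile-up of 38 and the background floor of 1.74. Esrrb, an orphan nuclear receptor of the naive network, had 2 peaks, with a fold enrichment of 8.77 on the tandem array printed above and 5.35 at a single-copy summit 51467 bp downstream. Klf5, a zinc finger factor, had 2 as well, at 7.15 (15948 bp away) and 6.19 (157496 bp away). Its stronger window held a match to the AP-1 site. Prdm14, which represses differentiation genes, had 7.27 and 4.10, the second at a summit in 3 copies.

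Sox2, the partner of Oct4, had 1 peak 107307 bp downstream with a fold enrichment of 5.38 and a pile-up of 23. It lay inside an enhancer that RefSeq lists as the Sox2 control region, chr3:34755799-34762403, and its window held 9 CG dinucleotides and a match to the Esrrb site. Tbx3 was the nearest coding gene of peaks at 5.55 (361644 bp away) and 4.47 (187252 bp). For Sall4 the value was 4.64 (20539 bp), for Mycn 4.27 (129540 bp) and for Dppa4 3.81 (482138 bp). Nr5a2 had 1.93, at a summit in 1457 copies with 90 input read ends. The 14 peaks with these 10 as nearest coding genes lay 15948 to 482138 bp from the coding TSS. Of them, 11 were single-copy, with a median fold enrichment of 5.38.

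Signalling genes were nearest coding genes as well, in lists of 10 to 29 genes to be read against the 5.86% of all coding genes. In the Wnt pathway, which CHIR99021 activates through GSK3, 4 of 28 genes (14.3%) had a peak: Ctnnb1, which encodes β-catenin (6.56), Znrf3, a ligase that lowers Wnt receptors (5.97), Apc (4.81) and Tcf7l2, with 3 peaks from 3.25 to 5.54. In the ERK pathway, which lies below the inhibited MEK, there were 3 of 29 (10.3%), among them Etv4 with 5.05 and 4.26 and Spred2 with 5.35. The TGF-β, Nodal and BMP list had 6 of 28 (21.4%), among them Id2 (6.04), Smad3 (5.15 and 4.59) and Id3 (3.82), and the 2 peaks of Smad7 had fold enrichments of 2.23 and 2.16 with 90 and 99 input read ends. Lif (3.85) and Lifr (5.29), the ligand and its receptor, were the 2 of 10 genes of the LIF list (20%).

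Among chromatin genes, Jade1, a scaffold of the HBO1 complex, had 1 peak 146986 bp upstream at 4.14. The HBO1 subunit list had 1 of 9 genes with such a neighbour (11.1%), near the 5.86% of all coding genes at this list size. Crebbp, with 5.79 and 4.14, was the 1 of 13 genes with a peak in the list of other acetyltransferases and readers (7.69%). In the Polycomb list it was 2 of 24 genes (8.33%), and both shares are near the same 5.86%. Of these, Rybp had 3 single-copy peaks from 3.42 to 5.77. Ezh2 had 13 peaks, all in multi-copy sequence, with fold enrichments from 1.30 to 2.14. Of 32 lineage transcription factors 6 had a peak (18.8%). Of the 32, 2 had one at a single-copy summit (6.25%, against 3.00% of all coding genes), Sox1 at 5.52 and Lhx5 at 4.27. Gata3, Meis1, Pax3 and Sox17 had peaks in multi-copy sequence only. The Gata3 peak, in 6 copies with 4 input read ends, had a fold enrichment between those of Zfp42 (9.74) and the Esrrb array (8.77). The fold enrichments of the Meis1, Pax3 and Sox17 peaks were below that of Lhx5. In the cell cycle list 1 of 16 genes had a peak (6.25%, against the same 5.86%), Cdk6 at 5.30.

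**Figure D4:**
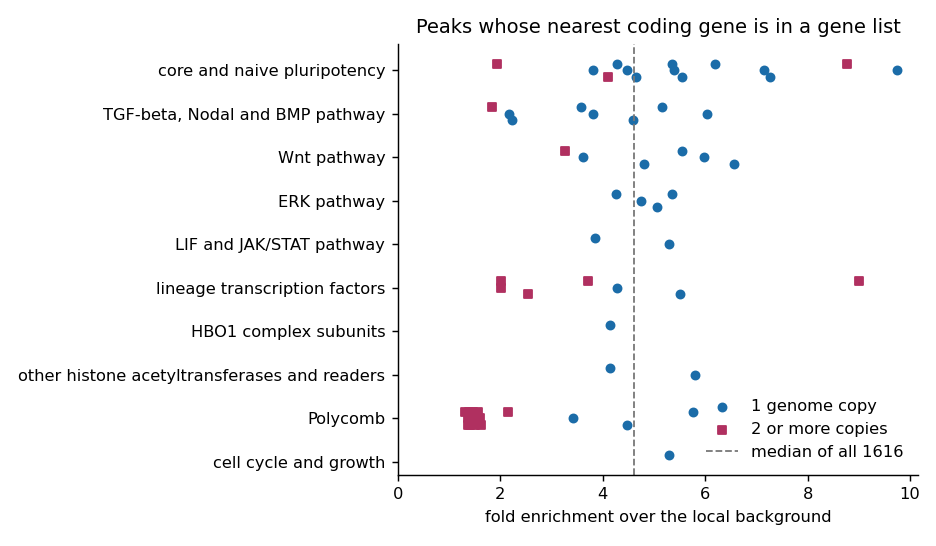
Fold enrichment (x) of each peak whose nearest coding gene belongs to a gene list (y), as circles for single-copy summits and squares for summits in 2 or more copies, with the median of all 1616 peaks as a dashed line. Single-copy peaks beside pluripotency genes run from 3.81 to 9.74, and the Ezh2 peaks stand apart at the left of the Polycomb row.

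The highest fold enrichment of all, 15.4, belonged to chr19:38325427-38325866, nearest to the start of the antisense gene Gm42723, with Lgi1 as the nearest coding gene 60756 bp away. Its pile-up was 67 and its background 2, at a single-copy summit. The next values were 10.7 beside Gm21378 in 563 copies and 10.5 beside Dtwd2 in 947 copies. The peaks beside Prl2c3 and Gm48527 had the same values, 10.2 from a pile-up of 40, and with summits in 2 copies each they are uncertain, since reads can be split between near-identical copies. Clstn3 followed with 10.0, Gm35572 with 10.0 in 10 copies, Zfp42, Vmn2r74 with 9.54 in 1212 copies and Gm48429 with 9.39 in 99 copies. Of these only the Clstn3 and Zfp42 summits were single-copy.

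The highest −log10 q values came from repeated sequence. The 5 highest, from 62.5 to 153, lay nearest to Gm13683, Gm21182, Nmnat3, Il23r and 4930567J20Rik, with between 136 and 659 input read ends and from 12 to 5624 copies. Among single-copy peaks the highest were 40.1 at Gm42723 and 23.6 at Vmn1r-ps2, where the input was 50.

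Some peaks fell in elements that RefSeq lists as functional. In all 11 did, and 6 of them lay in elements noted in mouse ES cells. All 183 merged elements with their centre in the space covered 519806 bp and the 7 noted in ES cells 109212 bp, so the latter were longer on average. The part of length in the shares that follow was not tested. Of the 183 elements 8 held a peak (4.37%, 1.91 to 8.43%), and of the 7 noted in ES cells 3 did (42.9%, 9.90 to 81.6%). Of these 3 elements 2 are described here. The Sox2 control region held the peak given above. A region that acts on Med13l, which encodes a Mediator subunit, held peaks at 6.04 and 5.99. The 5 peaks in elements not noted in ES cells lay in enhancers tested in mouse embryos, with fold enrichments from 2.47 to 4.17.

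Most peaks stood alone. Chained at gaps of at most 10 kb, 1273 were single, 248 came in 124 pairs, and 22 groups had 3 or more. The share with another such peak within 10 kb was 21.2% (19.3 to 23.3%). The largest group held the 13 peaks near Ezh2, chr6:47654842-47686356, with a median input of 674 read ends. A group of 6 near Pdia4 had 1143.5, and groups of 10 near Gm31371 and 5 near Gm21119 had 92 and 177. None of these held a single-copy summit. The group at Clstn3 and C1rl was different: 6 single-copy peaks over 6537 bp, chr6:124474982-124481518, with fold enrichments of 10.0, 7.23, 6.33, 8.53, 5.24 and 4.97 in order and 5 to 14 input read ends. Of the 22 groups of 3 or more, 5 were wholly single-copy, among them this one and those at Col13a1, Nfam1 and B4galt5.

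Sites of Oct4 were rare. The octamer, ATGCAAAT, was searched on both strands in the 200 bp around the summit and found at 3 peaks (0.186%, 0.0383 to 0.542%), against 1.89% of all windows of the space. The core of the Oct:Sox site, TTGTNATGC, was found at 1 peak, against 0.530%. The MORE, the half-site ATGCAT repeated directly with up to 1 mismatch, was found at 0 of 1616, which allows a share of up to 0.228%, against 0.226% of windows. Over all 12637 peaks on the same chromosomes the shares were 0.182% for the octamer, 0.277% for the Oct:Sox core and 0.0158% for the MORE. The low octamer share was thus not particular to the peaks here. The octamer is rich in A and T, and its gap to the windows was narrower at like base composition. Within 55 to 60% GC it was found at 0.220% of 454 single-copy peaks (0.00558 to 1.22%) and 0.368% of windows, so that no difference was detectable at this number.

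The other motifs were compared likewise. In this class the share of windows with a match lay inside the peaks' interval for 17 of 17 motifs. At 50 to 55% GC it did so for 14 of 17, with E box matches (CACGTG) more frequent at the 203 single-copy peaks and Klf and Gata matches less so. At 60 to 65% GC, with 53 peaks, Klf (GGGNGTGG), Tead and CTCF core matches were more frequent, Klf at 34.0% against 13.6%. No correction was made for the number of motifs and classes. The GC box, GGGCGG, was found at 32% of peaks in over 10 copies, 8.13% of single-copy peaks and 1.51% of windows. These sets differ in GC content. At 55 to 60% GC single-copy peaks had 7.71% against 8.73% of windows, while all 725 peaks of this class, multi-copy ones included, had 15.9% (13.3 to 18.7%). That interval counts copies of a repeat as independent and so understates the uncertainty. The printed window of the second repeat family held a GC box.

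**Figure D5:**
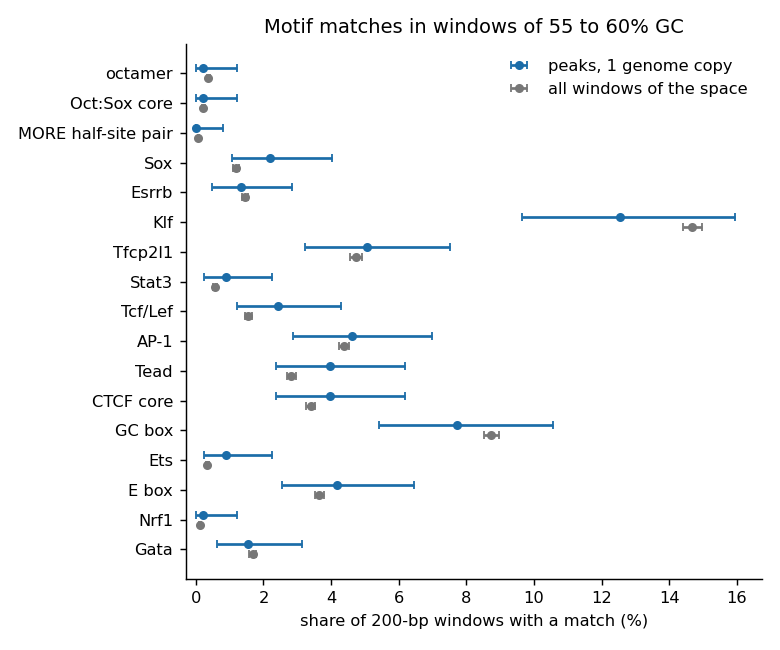
Share of 200-bp windows with a motif match (x, %) for 17 motifs (y), in single-copy peaks and in all windows of the intergenic space, both of 55 to 60% GC, with exact binomial 95% intervals. The intervals of the peaks take in the share of the windows for each motif.

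Peaks beside the limits of the rule had values on both sides of the median. Just inside 10 kb from a TSS lay a peak beside Zfp955b at 10003 bp with a fold enrichment of 2.04 and one beside Gm25270 at 10005 bp with 5.08. Just outside were peaks at 9993 bp beside Tent2 with 3.00 and at 9988 bp beside Gm20040 with 6.19. At the upper limit, peaks at 49930 bp beside Hrh1 (1.72) and 49986 bp beside Gm49250 (5.32) were inside, and those at 50002 bp beside A230072I06Rik (4.98) and 50049 bp beside AC102588.1 (2.13) were not.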

How the data were processed

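HBO1 ChIP-seq peaks and the input of Oct1 deficient mouse ESCs were used. Per the labels and the methods, alignment to mm10 was done by the authors with Novoalign 4.03.01 and peak calling with MACS2. How the ChIP samples were combined and whether duplicates were removed is not given in the sources used here. The deposited peak list gives the authors' fold enrichment as a ratio over the local background, −log10 p and −log10 q values, a score of 10 times the −log10 q, and the summit offset. The highest q in it was 0.00498. The deposited input gives each read end with its mapping quality score, with no normalization.

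Distances used GENCODE vM21 and sequences the soft-masked GRCm38 reference. For input, the midpoints of read ends in the 1 kb centred on the summit were counted. Copies were exact matches, on both strands, of the 32 bases at the summit on chromosomes 1 to 19, X and Y. Pile-ups were solved from the fold enrichment, taken with a pseudocount of 1, and the −log10 p; 1611 of 1616 had a single solution. The space was tiled in windows of 200 bp (sequence) and 1 kb (input). Shares have exact binomial and densities exact Poisson 95% intervals. With 1 pooled list no test was made. The place, pile-up and motif steps were tested on simulated data. Python 3.11.15, numpy 2.4.6, scipy 1.17.1, pandas 2.3.3 and matplotlib 3.10.9 were used.

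The peaks, the 12 gene lists and the 17 motifs were chosen with earlier results of these data known. Genes named are those nearest to the 10 peaks of highest fold enrichment, the 5 of highest −log10 q, the listed genes, the 5 largest groups and the peaks beside the limits; the copy classes, the families, the RefSeq elements and the groups of single-copy peaks were chosen after their values were seen. Some peaks beside named genes are not reported here.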

Additional observations from a re-analysis of the deposited data

How the results depend on the processing

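No paired analysis was possible because 1 pooled peak list and 1 input were used. Of 44 alternatives over 11 results, 19 stayed within the interval of the reported value (for the count, within 1.5 times) and 25 did not; 10 of the 44, those with single-copy peaks alone, were added after seeing the data. The number of peaks was 313 with −log10 q limited to 10 or more, and 875 where peaks with over 10 input read ends were dropped. Median fold enrichment was 5.20 at a −log10 q of 5 or more, 4.98 at 10 or more, 5.40 without high input and 5.05 for single-copy peaks. The share with a −log10 q of at least 10 was 10.9% without high input and 8.67% for single-copy peaks. Median input was 6 at a mapping quality of at least 20, 19 at a −log10 q of 10 or more and 6 for single-copy peaks. The octamer share was 5.14% with 1 mismatch (25.6% of windows, and at 55 to 60% GC 7.71% of single-copy peaks against 6.81% of windows) and 0% at a −log10 q of 10 or more, where that of the Oct:Sox core was also 0%. The share with a neighbour was 17.6% at 5 kb, 27.2% at 25 kb, 17.9% at a −log10 q of 5 or more and 15% among single-copy peaks. The nearest TSS was coding for 33.8% with 1 TSS per gene and 31.4% of single-copy peaks, 61.8% were upstream with 1 TSS per gene, and 16.4% of single-copy summits were marked as repeat. Median pile-up was 33 at a −log10 q of 5 or more, 24 without high input and 25 for single-copy peaks. The cause was not tested. A pile-up of 15 to 31 reads limits the ranking of single peaks.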

Other observations

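Of the 878 peaks with a summit in over 1 copy, 201 had a further copy within the same 1 kb, and for 15 of them every copy lay there, as at Esrrb. By chromosome, single-copy peaks ran from 0.566 per Mb of the space on chromosome 3 to 2.60 on chromosome 11. The nearest other HBO1 peak of any kind lay a median of 43368 bp away.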
